A study of Mus musculus with 3 samples.

Results

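GLI3 binding near 10 immediate-early genes was examined in mouse forelimb buds at E10.5 (days of embryonic development). The genes were Ier2, Ier3, Ier5, Fos, Fosb, Jun, Junb, Jund, Egr1 and Egr3. Their peaks were all those in the deposited list whose summit lay within 50 kb of an annotated transcription start site (TSS) of one of these genes, which gave 59 of 17149 listed peaks. The gene set was chosen by the enrichment value of the strongest peak in the list, which lies beside Ier2, so the rank and enrichment of that peak are given as a description. No peak was shared between these genes.

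The peaks came from chromatin immunoprecipitation and sequencing (ChIP-seq) with an antibody to FLAG, in mice whose endogenous Gli3 gene carries a FLAG tag at the N terminus of the protein. There were 2 ChIP libraries and 1 input library of chromatin without immunoprecipitation, all from embryos with 32 to 35 somites and all carrying the genotype label wild type. Limb buds of 2 litters were pooled per ChIP and dissociated with Liberase at 37 °C for 6 minutes before fixation. Neither the number of reads per library nor a value per replicate is in the list, so replicate error is unknown for every value below, and no test was run. The material was whole forelimb bud, so binding in a few cells and weak binding in many cannot be told apart.

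GLI3 is one of the transcription factors that act at the end of Hedgehog (HH) signaling. It binds a short GC-rich motif through zinc fingers, and without HH signal it is processed to a repressor. Immediate-early genes are transcribed within minutes of a growth factor or stress signal, without new protein synthesis. Many code for transcription factors: FOS, FOSB, JUN, JUNB and JUND are subunits of the dimeric factor AP-1, and EGR1 and EGR3 are zinc finger factors. IER2, IER3 and IER5 are short proteins that are not AP-1 or EGR family members. In the limb bud, fibroblast growth factor (FGF) signaling from the apical ridge runs alongside HH signaling from the posterior margin.

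The strongest GLI3 binding region in the list was 6605 bp downstream of the Ier2 TSS, at chr8:84655250-84657299 in mm10, in intergenic sequence 5084 bp beyond the 3′ end of the gene. Its sequence is shown first because it is the region for which the gene set was chosen. The 300 bases around its summit, chr8:84656097-84656396 on the plus strand, are given with capitals at the matches to the GLI consensus GACCACCCA that differ at 1 base.
Ier2 strongest peak: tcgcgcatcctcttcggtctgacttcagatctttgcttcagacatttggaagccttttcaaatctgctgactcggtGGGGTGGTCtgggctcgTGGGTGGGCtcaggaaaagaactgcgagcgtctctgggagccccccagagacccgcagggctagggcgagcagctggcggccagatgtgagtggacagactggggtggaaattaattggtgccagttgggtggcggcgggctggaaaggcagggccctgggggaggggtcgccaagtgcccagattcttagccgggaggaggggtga

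Both matches lay on the minus strand, 17 bp apart. Read on that strand and counted from 1 at the 5′ end of the consensus, the first in the line, GACCACCCC at chr8:84656173-84656181, carried the substitution A9C and lay 70 bp from the summit. The second, GCCCACCCA at chr8:84656190-84656198, carried A2C and lay 53 bp from the summit. No other match with at most 1 mismatch was found in the whole 2050 bp of the peak. At least 2 such matches were present in 199 of the 7282 peaks with a false discovery rate (FDR) under 0.05, or 2.73%, and in 13 of the 100 highest-ranked peaks. A match is a description of the letters and does not show which bases GLI3 contacts.

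Other GLI matches near these genes are shown because they differ in how close they come to the consensus and to the summit. Each line is read along the strand of the match, with the match in capitals and 10 bases on either side. The first is at chr8:84665326-84665354 on the plus strand, in an intron of the long noncoding RNA gene Gm26664 upstream of Ier2, with the substitution A2G. The next is at chr8:84639173-84639201 on the minus strand, near the 3′ end of Cacna1a, with C6A. The last pair are from one peak in Ercc1, within 50 kb of Fosb, at chr7:19345464-19345492 on the minus strand, with C6A, and at chr7:19345646-19345674 on the plus strand, an exact consensus.
Ier2 upstream peak: ccaaggtgtaGGCCACCCAgtgcgtgggt
Ier2 peak at Cacna1a: agataccacgGACCAACCAggagcacacg
Fosb peak at Ercc1, minus strand: ggttccagagGACCAACCAgtgggcccgc
Fosb peak at Ercc1, plus strand: cagccctcagGACCACCCAccaggaggaa

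The match in the Gm26664 intron lay 7 bp from its summit, and the exact consensus in the coding exon of Ercc1 lay 3 bp from its summit. The matches with C6A were farther away, at 195 bp in the Cacna1a peak and 179 bp in the Ercc1 peak. The only other exact consensus within 250 bp of a summit was in a peak downstream of Fos, 173 bp from the summit and on the minus strand. That stretch, chr12:85486302-85486504 on the plus strand, is shown from just before the summit to just past the motif, which is in capitals.
Fos downstream peak: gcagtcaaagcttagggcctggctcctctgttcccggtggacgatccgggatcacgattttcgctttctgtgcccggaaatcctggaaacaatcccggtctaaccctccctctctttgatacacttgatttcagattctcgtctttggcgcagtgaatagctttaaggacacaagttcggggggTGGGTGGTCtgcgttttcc

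At an FDR under 0.05, the threshold used here for a GLI3 binding region, 20 of the 59 listed peaks were retained and 39 were not. In the whole list 42.5% of peaks were under this threshold. All 10 genes had a listed peak within 50 kb, where 59.8% of 21938 protein-coding genes did. Of the 10 genes, 9 had a peak with an FDR under 0.05, where 40.5% of protein-coding genes did, and Egr3 was the exception. Since Ier2 was chosen for its peak, its place in these counts is fixed by the choice.

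Enrichment is given on the log2 scale, as the highest fold of ChIP over input within a peak that the authors' caller wrote. The 20 peaks had a median of 2.72 (quartiles 2.47 and 3.0, range 2.33 to 6.37), and all 7282 peaks under the threshold had a median of 2.69 (quartiles 2.47 and 3.06). Apart from the strongest peaks at Ier2 and Ier5, the peaks near immediate-early genes lay in the ordinary range of the list. With every listed peak, the median was 2.2 near these genes and 2.23 over the list.

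**Figure D1:**
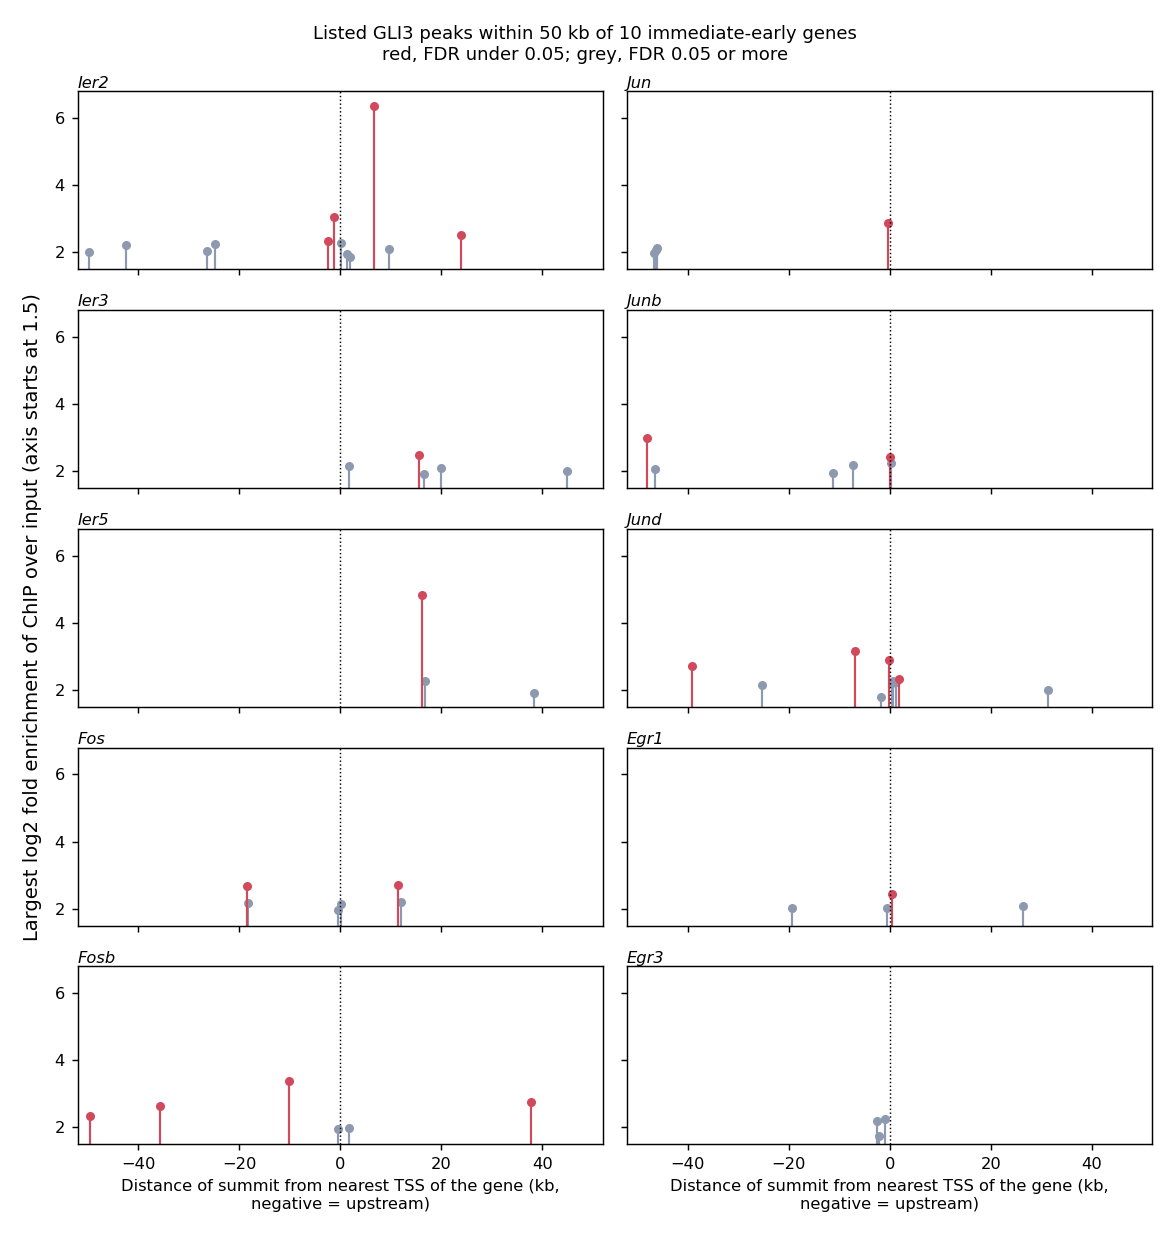
All 59 listed GLI3 peaks near the 10 genes, by distance from the nearest TSS of the gene in kb (negative is upstream) and log2 fold enrichment of ChIP over input at its highest; the enrichment axis starts at 1.5. Red peaks have an FDR under 0.05 and grey peaks do not. The Ier2 peak at 6.37 and the Ier5 peak at 4.81 stand above the others, none of which exceeds 3.38.

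Ier2 had 12 listed peaks within 50 kb, a number that 0.552% of protein-coding genes reached or passed, and 4 of them had an FDR under 0.05. Some of the 12 had another gene, Cacna1a, Nacc1, Trmt1 or Nfix, as the nearest coding gene. The strongest of the 12 had a log2 fold enrichment of 6.37, or 82.9-fold on a linear scale, against 6.05 for the next peak in the list, at the HH target Ptch1. It was 1 of 96 listed peaks whose Poisson p-value had reached the limit of the caller, a −log10 of 100, so that value does not order it among them. It was among the widest too: 24 peaks with an FDR under 0.05, itself included, were at least 2050 bp long.

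The other peaks around Ier2 were far weaker. One was in its promoter, defined as 2 kb before to 1 kb after a TSS, at chr8:84663900-84664249, 1225 bp upstream with a log2 fold enrichment of 3.06, rank 1814 and an FDR listed at 0. It held a GC box (GGGGCGGGG), the binding motif of SP factors, 67 bp from the summit and no GLI match. The next upstream peak, 2495 bp from the TSS in the Gm26664 intron, reached 2.34 with an FDR of 0.0374. The Cacna1a peak, 23860 bp downstream of Ier2, reached 2.52 with an FDR of 0.0114. Its summit was 1 bp from an internal TSS of Cacna1a, which codes for a calcium channel subunit, and in an exon of a noncoding transcript. Cacna1a starts 274.412 kb from the Ier2 TSS and ends 22.606 kb from it, so this TSS is near its 3′ end. A listed peak over the Ier2 coding exon, 200 bp past the TSS, had an enrichment of 2.27 and an FDR of 0.0704 and so was not retained.

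**Figure D2:**
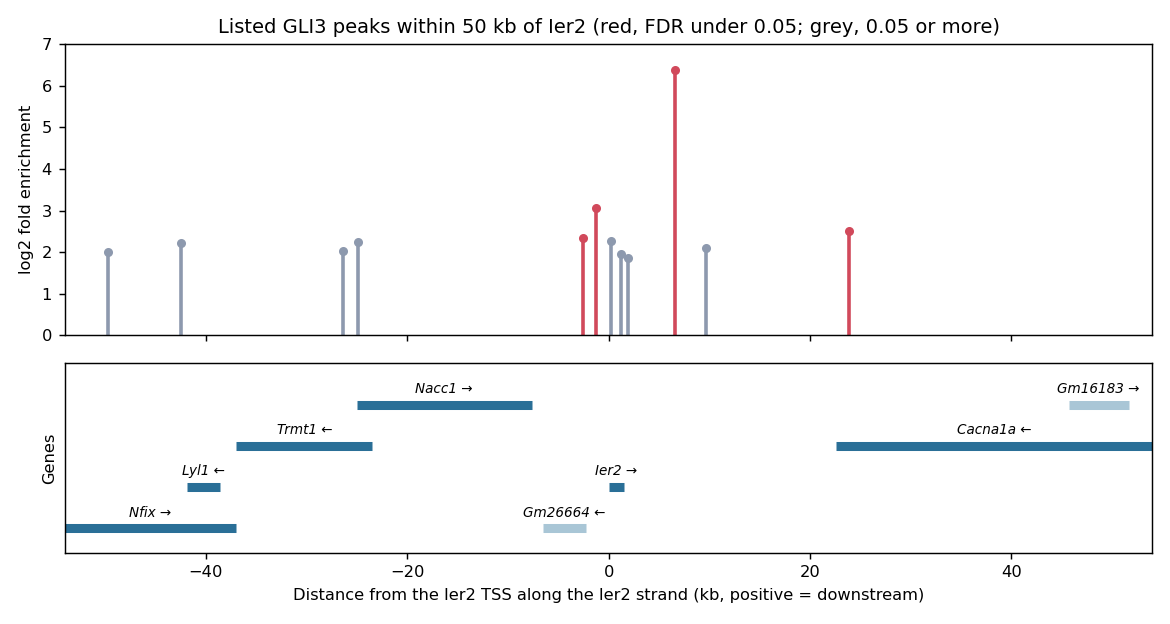
Listed GLI3 peaks within 50 kb of Ier2 (top, log2 fold enrichment of ChIP over input; red, FDR under 0.05; grey, 0.05 or more) and the annotated genes (bottom; dark, protein-coding; light, noncoding; arrows give direction), by distance in kb along the Ier2 strand. The peak at 6.37 lies 6605 bp past the TSS, between Ier2 and Cacna1a.

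By the rule used for likeness to Ier2, the best-ranked peak of a gene at 2 to 20 kb from its TSS, the 5 highest-ranked genes were Cacna1a, Cd248, Yif1a, Rin1 and Fam199x. Each rested on a peak that was nearer to another gene. For Cacna1a it was the Ier2 peak itself, at 17256 bp from the internal TSS near the 3′ end of Cacna1a. For Cd248, Yif1a and Rin1 it was the peak ranked 3, with an enrichment of 5.93 and 195 bp from Tmem151a, and for Fam199x the peak ranked 4, with 5.92 and 35 bp from Slc25a53. Peaks whose nearest coding TSS was itself 2 to 20 kb away were therefore listed after these values were seen. Of the 100 highest-ranked peaks, 20 were of this kind. After Ier2 the strongest were at Igf2bp1 (5.29, 8931 bp from the TSS), Runx3 (5.22, 12151 bp), Rnf216 (5.12, 15562 bp), Coro7 (5.0, 3060 bp) and Micall2 (4.96, 7947 bp). Within 250 bp of the summit, GLI matches were present in the Runx3 peak (3) and the Micall2 peak (2) and in none of the other 3.

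Ier5, whose product takes part in the heat shock response, had the next strongest peak of the set. It lay at chr1:155083050-155084499, 16079 bp downstream of the TSS, with a log2 fold enrichment of 4.81, rank 42 and an FDR listed at 0. Like the Ier2 peak it was intergenic, long (1450 bp) and at the limit of the Poisson p-value. Its only GLI match, an exact consensus, was 420 bp from the summit and outside the bases shown here, where the Ier2 matches were within 70 bp. The summit was 291 bp from the start of a long noncoding RNA gene, Gm9530. Its GC content was 74.9%, the highest of the 20 peaks, against 58.9% for the Ier2 peak. The 300 bases around its summit, chr1:155083407-155083706 on the plus strand, are shown for contrast with the Ier2 sequence, with a GC box in capitals, read here as its reverse complement.
Ier5 strongest peak: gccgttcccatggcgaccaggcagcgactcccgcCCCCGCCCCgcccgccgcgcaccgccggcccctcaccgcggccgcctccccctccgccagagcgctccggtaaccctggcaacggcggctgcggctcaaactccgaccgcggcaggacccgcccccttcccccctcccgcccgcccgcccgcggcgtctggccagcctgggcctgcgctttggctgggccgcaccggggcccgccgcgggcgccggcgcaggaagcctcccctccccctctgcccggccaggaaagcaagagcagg

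The remaining listed peaks of Ier5 were at 16824 bp (enrichment 2.27, FDR 0.0704) and 38359 bp (1.92, FDR 0.782) downstream, and neither was retained. Ier3, whose product modulates cell survival, had 5 listed peaks, all downstream of its TSS. The strongest had an enrichment of 2.48 and an FDR of 0.0114, at 15543 bp. Its summit was in an intron of Tubb5, a tubulin gene, 167 bp from the TSS of that gene. The other 4 were within 88 bp of a TSS of Flot1, Mdc1, Ppp1r18 or Tubb5 and had an FDR of 0.233 or more. No listed peak at Ier3 had Ier3 as the nearest coding gene.

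Among the AP-1 subunits, Fos had 6 listed peaks and no other protein-coding gene within 50 kb. The strongest were distal. One was 11406 bp downstream, at chr12:85486000-85486549, with an enrichment of 2.71, and the other 18503 bp upstream, at 2.68, both with an FDR of 0.00228. The downstream peak held the GLI consensus shown above, a GC box 142 bp from the summit and a CArG box, the motif of serum response factor, 198 bp from it. The CArG box is in capitals in the 30 bases at chr12:85486104-85486133 on the plus strand.
Fos downstream CArG box: tccgttctgcCCATATTTGGaaaggcgccg

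Both distal Fos peaks had a weaker listed neighbour on the same side, at 11931 bp downstream (2.2) and 18363 bp upstream (2.18), neither under the threshold. At the Fos promoter, peaks 37 bp downstream (2.15, FDR 0.233) and 483 bp upstream (1.95, FDR 0.727) were listed but not retained.

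Fosb had 4 peaks under the threshold, of which 1 had Fosb as the nearest coding gene. That peak, at chr7:19320000-19320299, lay 10096 bp upstream with an enrichment of 3.38, rank 957 and an FDR listed at 0, in an exon of the noncoding RNA gene D830036C21Rik. The others were at promoters or exons of neighbours. A 1100 bp peak 15 bp from the TSS of Vasp, a regulator of actin filaments, reached 2.76. The peak in Ercc1, a DNA repair gene, reached 2.63, and a peak 97 bp from Ppp1r13l reached 2.33. The peak at the Fosb promoter itself had an enrichment of 1.97 and an FDR of 0.727.

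Jun was bound at its promoter, with a single peak under the threshold. This peak, at chr4:95052250-95052549, had its summit 265 bp upstream of the TSS, an enrichment of 2.88, rank 2563 in the list and an FDR listed at 0. The other 3 listed peaks of Jun lay together 45965 to 46750 bp upstream, in introns of the antisense noncoding gene Junos, at 1.99 to 2.14, and were not retained. The 250 bases before the TSS are given as RefSeq has them, chr4:95052223-95052472 on the minus strand in GRCm38.p6, since the peak covers nearly all of them. Capitals mark TGACATCA, a variant of the cyclic AMP response element that was looked for after the values were seen.
Jun promoter: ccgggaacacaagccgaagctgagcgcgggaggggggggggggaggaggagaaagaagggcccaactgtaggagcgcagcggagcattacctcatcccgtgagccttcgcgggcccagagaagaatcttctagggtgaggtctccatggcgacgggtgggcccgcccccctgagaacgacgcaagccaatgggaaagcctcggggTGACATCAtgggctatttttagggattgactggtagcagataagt

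The site began 45 bp before the TSS, inside the peak and 220 bp from its summit. On either strand, the same letters were present in 3.62% of 32851 RefSeq promoter windows (250 bases before and 50 after a start site). RefSeq windows were at hand for 7 of the 10 genes (Ier3, Ier5, Fos, Fosb, Jun, Junb and Jund), and none of the 7 held a GLI match with at most 1 mismatch, which 6.74% of all windows did. In the same 7 windows there was no AP-1 site (TGANTCA, 7.81% of all windows), cyclic AMP response element (TGACGTCA, 1.79%), EGR site (GCGTGGGCG, 0.612%), ETS site (ACCGGAAGT, 1.1%), GC box (11.4%) or CArG box (1.63%).

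Junb had a promoter peak over its 5′ untranslated region, 91 bp downstream of a TSS, with an enrichment of 2.43 and an FDR of 0.0208. A second listed promoter peak had 2.26 and an FDR of 0.0709. It was 180 bp downstream of another TSS inside the gene, in an exon of a noncoding transcript. The strongest peak within 50 kb of Junb, at 2.98, was 48074 bp upstream and 31 bp from the TSS of Trir. Junb had 9 other protein-coding genes within 50 kb, the most of the set.

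Jund had 10 listed peaks, a number reached by 1.05% of protein-coding genes, and 4 were under the threshold. The strongest was 6887 bp upstream, at chr8:70691950-70692399, with an enrichment of 3.16 and rank 1490. The promoter peak, chr8:70698150-70698949, had its summit 232 bp upstream of the GENCODE TSS, an enrichment of 2.91 and a length of 800 bp. RefSeq starts this gene farther upstream, so that the summit falls inside the transcript there and in intergenic sequence in GENCODE. The other peaks were 1858 bp downstream of the TSS (2.33) and 9 bp from the TSS of Pgpep1, a peptidase gene (2.72). Of the 4 listed promoter peaks of Jund, a number reached by 0.916% of protein-coding genes, 3 had an FDR of 0.0709 or more.

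The Jund promoter peak was the 1 peak of the 20 with an exact cyclic AMP response element, 22 bp from its summit. The 30 bases around it, chr8:70698724-70698753 on the plus strand, are shown with the element in capitals.
Jund cyclic AMP response element: ccccacccccaTGACGTCAacccacaatgc

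The EGR genes had the lowest enrichment of the set at their highest-ranked peak. Egr1 had a peak over its 5′ untranslated region on chromosome 18, 464 bp downstream of the TSS, with an enrichment of 2.43, an FDR of 0.0208 and a GLI match with 1 mismatch 10 bp from the summit. Its other 3 listed peaks ranged from 2.02 to 2.09, and 1 of these was 17 bp from the TSS of Reep2. Egr3 had 3 listed peaks, all 871 to 2426 bp upstream, and its strongest had an enrichment of 2.24 and an FDR of 0.0799.

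**Figure D3:**
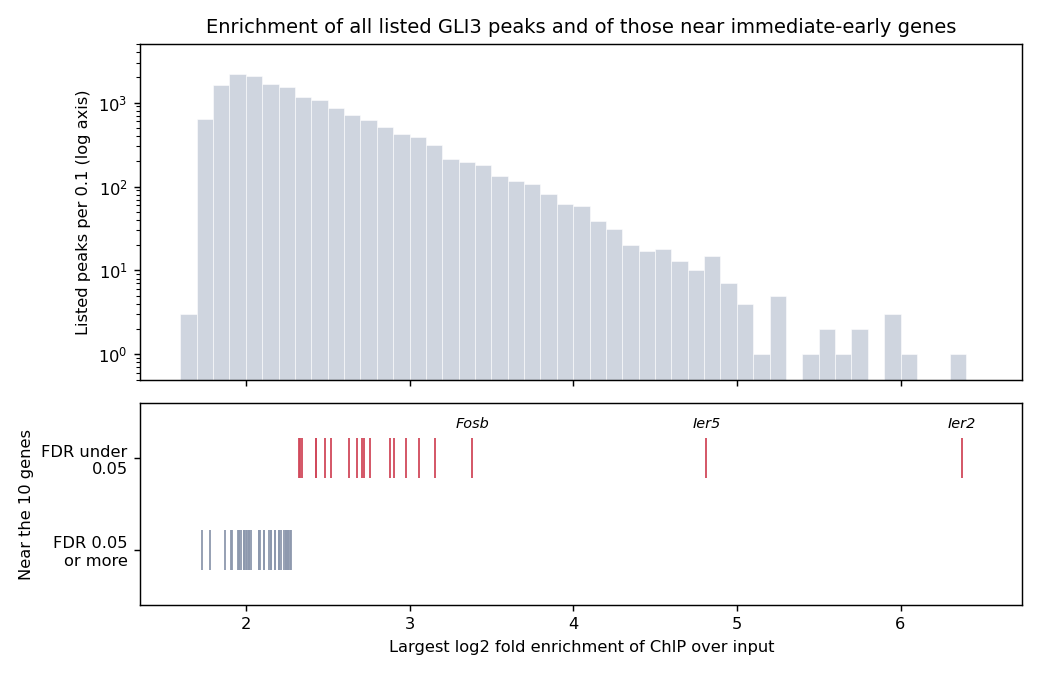
Top, number of listed peaks per 0.1 of log2 fold enrichment over input (log axis). Bottom, the 59 peaks near the 10 genes, 1 bar per peak, by FDR class. Peaks at Ier2 (6.37), Ier5 (4.81) and Fosb (3.38) lie highest, and the other peaks with an FDR under 0.05 lie from 2.33 to 3.16.

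At promoters, 8 of the 10 genes had a listed peak, where 32.0% of protein-coding genes did, and Ier3 and Ier5 had none. At least 2 listed promoter peaks were present at 5 genes (Ier2, Fos, Junb, Jund and Egr1), where 9.25% of protein-coding genes had as many. With an FDR under 0.05, promoter peaks were found at 5 genes (Ier2, Jun, Junb, Jund and Egr1), where 18.0% of protein-coding genes had one. In all there were 15 listed promoter peaks, of which 5 were under the threshold. Their enrichment ran from 2.43 at Junb and Egr1 through 2.88 at Jun and 2.91 at Jund to 3.06 at Ier2.

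Not every peak within 50 kb was nearest to an immediate-early gene. Of the 20 peaks, 9 had one of the 10 genes as the nearest of all annotated genes, noncoding genes included. Among protein-coding genes alone, 13 of the 20 did. The other 7 were within 1 kb of another coding gene, each of a different one: Cacna1a, Tubb5, Vasp, Ercc1, Ppp1r13l, Trir and Pgpep1. Summits were intergenic in 11 peaks, in introns in 4, in exons of noncoding transcripts in 2, in 5′ untranslated regions in 2 and in a coding exon in 1. Within 1 kb of any coding TSS there were 11 of the 20 (55%), against 52.8% of all peaks under the threshold. The median number of other coding genes within 50 kb was 2 for the 10 genes (range 0 to 9) and 2 for all protein-coding genes.

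A GLI match with at most 1 mismatch within 250 bp of the summit was present in 6 of the 20 peaks (30%, 95% Wilson interval 14.5 to 51.9%), against 20.8% of all 7282 (19.9 to 21.8%). The interval holds the value for all peaks, and it covers counting error over peaks alone. The 6 were at Ier2 (3 peaks), Fos, Fosb and Egr1. Over the whole of each peak 7 of the 20 held a match (35.0%, against 19.9% of all peaks), the further one being the Ier5 peak. No match was found by either search at the retained peaks of Ier3, Jun, Junb or Jund. Over all 59 listed peaks the share was 16.9% (9.48 to 28.5%), against 17.9% over the list. Where windows of neighbouring listed peaks overlap, as upstream of Jun, the same match can be counted again, and the interval treats the peaks as separate.

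Of the motifs of factors linked to immediate-early genes, an AP-1 site was in 0 of the 20 peaks, which allows a share of up to 15.0%, against 7.62% of all peaks under the threshold. A GC box was in 7 of 20 (35.0%, against 20.2%). A cyclic AMP response element (2.1% of all peaks), an EGR site (1.36%) and a CArG box (2.14%) were each in 1 of 20, at Jund for the first pair and at Fos for the last. An ETS site was in none, against 1.32%. In the 59 listed peaks there were 8 with an AP-1 site (13.6%, against 8.45% of the list), 6 with a CArG box (10.2%, against 2.46%) and 3 with an EGR site (5.08%, against 1.2%). A GC box was in 16 of the 59 (27.1%, against 16.7%), a cyclic AMP response element in 2 (3.39%, against 1.67%) and an ETS site in 0 (against 1.15%). Some of these windows overlap, as do those of the Egr3 peaks with a CArG box, so a site can be counted again at a neighbouring peak.

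The 20 peaks had a median GC content of 61.3%, from 52.9% to 74.9%, against 58.7% for all peaks under the threshold. Their ratio of observed to expected CpG had a median of 0.76, against 0.62. The peaks of all kinds fall into a CpG-poor and a CpG-rich cloud, and the Ier2 peak, with a ratio of 0.39, had the lowest ratio of the 20. Their median length was 450 bp, against 400 bp.

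**Figure D4:**
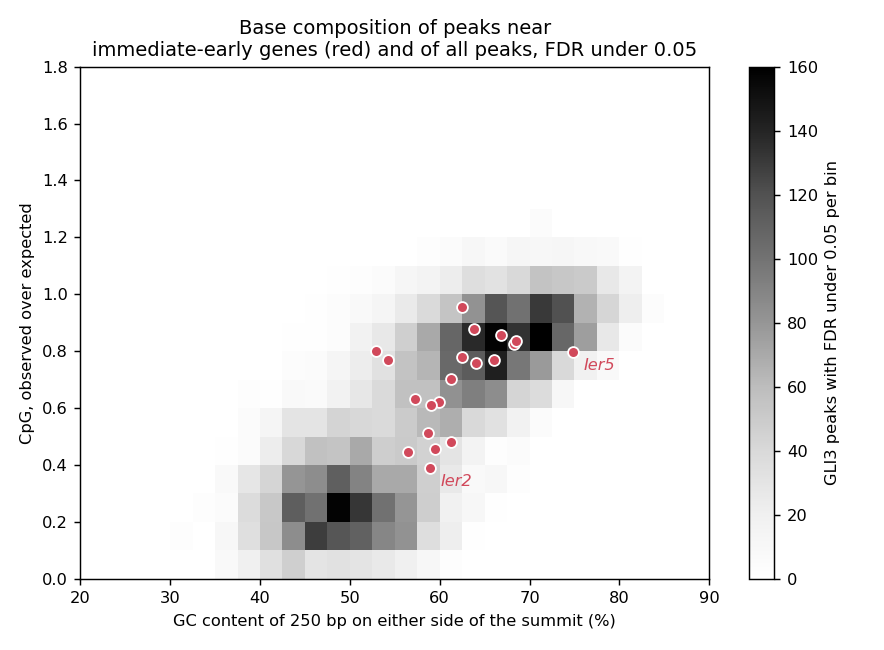
GC content (%) and observed over expected CpG within 250 bp of each summit, for the 20 peaks near the 10 genes (red points) and all 7282 peaks with an FDR under 0.05 (grey, peaks per bin). The Ier2 peak is at 58.9% GC and a ratio of 0.39, and the Ier5 peak at 74.9% GC and 0.8.

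The 10 genes were set beside 28 other immediate-early genes and 8 FGF feedback and response genes. A peak with an FDR under 0.05 within 50 kb was present at 18 of the 28 (64.3%) and 6 of the 8 (75%), against 9 of the 10. The median enrichment of each gene's highest-ranked listed peak was 2.93 for the 10 genes, 2.59 for the other immediate-early genes, 3.18 for the FGF genes and 2.58 for all protein-coding genes with a listed peak. The highest among the other immediate-early genes were Id2 (4.07), Id3 (3.95) and Id1 (3.93), which code for inhibitors of basic helix-loop-helix factors. Among the FGF genes they were the phosphatase gene Dusp6 (3.93) and the Sprouty genes Spry4 (3.8) and Spry2 (3.19). Of the HH pathway feedback genes, the receptor gene Ptch1 had a highest-ranked peak at 6.05 and the activator gene Gli1 one at 5.76, both below the Ier2 peak and above the peaks of the other 9 immediate-early genes. A peak with an FDR under 0.05 in the promoter was present at 12 of the 28 and 6 of the 8, against 5 of the 10.

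**Figure D5:**
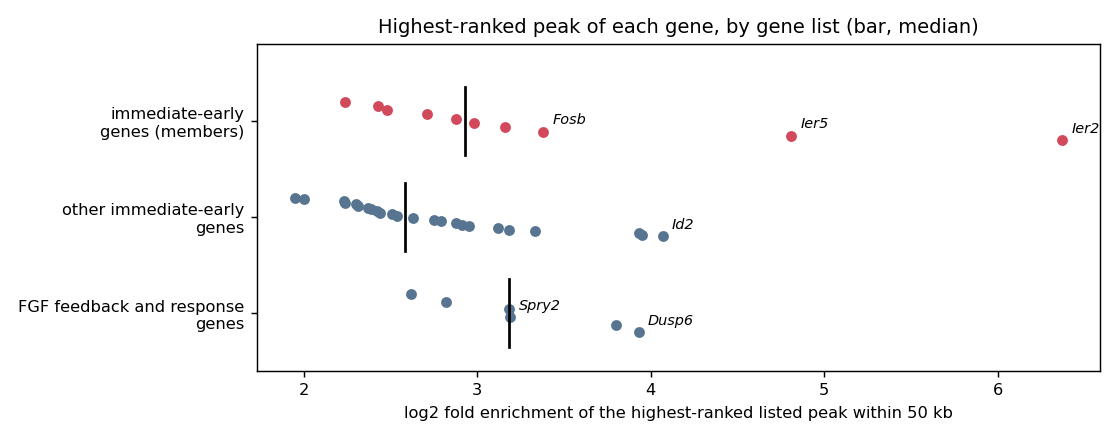
Enrichment (log2 fold over input) of the highest-ranked listed peak within 50 kb of each gene, 1 point per gene, in 3 gene lists; bars are medians (2.93, 2.59 and 3.18 from top to bottom) and genes with no listed peak are left out. Ier2 is at 6.37, Id2 at 4.07 and Dusp6 at 3.93.

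The limit of 50 kb set which peaks were counted. The peaks just inside it were at 49735 bp (Ier2, enrichment 2.0), 49601 bp (Fosb, 2.33) and 48074 bp (Junb, 2.98). Just outside were peaks at 58119 bp (Junb, 2.43), 59111 bp (Ier5, 2.17) and 59955 bp (Ier2, 3.6). Some of the strong peaks of the list lay farther out, at 75528 bp from Ier3 (rank 33, 4.86), 79930 bp from Ier2 (4.4), 89322 bp from Jund (rank 108, 4.37) and 93300 bp from Egr1 (rank 290, 3.94).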

How the data were processed

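GLI3-FLAG ChIP-seq of E10.5 forelimb buds comprised 2 ChIP libraries and 1 input. Bowtie2 2.2.5 and mm10 are named in the submitters' processing notes, and CisGenome as the peak caller in the study's methods. The 1 peak list is attached to ChIP replicate 1 and was treated as a joint call of both, which it does not state. For each peak the deposited list gives an FDR (a q-value), the largest log2 fold enrichment over input, a T statistic (a score with no fixed range, by which the authors ranked peaks) and its smallest Poisson p-value as −log10, which stops at 100. Lengths in the deposited list are multiples of 50 bp. Read depth is not given in the list, so its effect on precision is unknown.

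Coordinates are as listed. They were checked against GRCm38.p6: 0 peak ends passed a chromosome end, and 5 peaks on unplaced sequence were left out. Genes came from GENCODE M21 (all transcripts), promoter sequences from RefSeq. A promoter peak overlapped the window from 2 kb before to 1 kb after a TSS. Motifs were searched on both strands within 250 bp of the summit, GLI with at most 1 mismatch and the others exactly, a site whose letters read the same on both strands being counted once. Shares carry 95% Wilson intervals, and a count of 0 is limited by 3 counts. No model was fitted and no test was run. The motif search was tested on simulated sequences with planted GLI and CArG motifs, and the other steps were not. Python 3.11.15, pandas 2.3.3 and scipy 1.17.1 were used. Alternatives changed the distance, the FDR threshold, the TSS set, the promoter window, the motif and the ranking.

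The genes and lists were chosen with earlier results of these data known. Named genes were the 10 genes, the coding gene nearest to each of their peaks under the threshold, the top 3 of each list and the 5 genes most like Ier2. One gene of the HH list, and the values of that list as a whole, are not reported here. Genes at other listed peaks, at the peaks of the Ier2-like genes and at the further distal peaks are named outside this rule, after their values were seen.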

Additional observations from a re-analysis of the deposited data

How the results depend on the processing

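The list holds no value per replicate, so leaving out each replicate in turn could not be run. No paired analysis was possible because the result comes from no test and the replicates have no columns of their own. The log2 fold enrichment of the Ier2 peak had no alternative. Of 45 alternative values for the other 8 results, 35 stayed within 1.5 times the count or within the interval of the value and 10 moved. The 20 peaks under the threshold became 32 within 100 kb, 13 at an FDR under 0.01 and 59 with every listed peak. With every listed peak, 38 peaks were nearest to one of the 10 genes in place of 13, the median enrichment was 2.2 in place of 2.72, and 8 genes had a promoter peak in place of 5. At an FDR under 0.01, 3 genes had a promoter peak. The share of peaks with a GLI match was 10% for exact matches, against 2.84% of all peaks, and 85.0% with up to 2 mismatches, against 82.7% of all peaks. Ranked by length, the Ier2 peak was 22nd, and it was 1st by enrichment and by Poisson p-value, where it shared the limit with others. These results rest on 1 list and describe it alone; how far the values vary between embryos is unknown.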
